A study of Mus musculus with 27 samples.

Results

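The core and branching enzymes of mucin O-glycans were followed as 8 genes: C1galt1, C1galt1c1, B3gnt6, B3gnt7, Gcnt1, Gcnt3, Gcnt4 and B3galt5. They were named as a list of symbols, and all 8 were found among the 35975 genes measured and passed the filter on low counts in every comparison. RNA was sequenced after poly(A) selection in 27 libraries of proximal and distal colon from 14 mice of mixed background. The deficient genotype was Villin1-Cre; Foxa1lox/lox; Foxa2lox/lox, in which Cre recombinase is driven in the intestinal epithelium. These 7 mice were between 9 and 13 months old, 2 of them were labelled female, and each gave both segments. The control group held 7 mice labelled male, between 9 and 18 months old, of which 3 were 18 months old. All 7 gave a proximal library and 6 gave a distal library. Both groups carried lox alleles of both genes, and 5 controls, Foxa1lox/lox; Foxa2lox/lox, had no Cre. Control replicate 1 was Villin1-Cre; Foxa1lox/wt; Foxa2lox/wt, and control replicate 6 was Villin1-Cre; Foxa1lox/lox; Foxa2lox/wt. The libraries came from 1 cm pieces of colon tissue, so epithelium, muscle, stroma and immune cells were measured together. Fewer cells of a type and less RNA per cell cannot be told apart in such samples.

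Foxa1 and Foxa2 are forkhead transcription factors of endoderm-derived epithelia. Mucins such as Muc2, the gel-forming mucin of the colon, carry many sugar chains on serine and threonine. Each chain starts with an N-acetylgalactosamine. C1galt1 adds a galactose to it to make core 1, and C1galt1c1 (Cosmc) is the chaperone that C1galt1 needs to fold. B3gnt6 adds an N-acetylglucosamine instead, which makes core 3, the core known from colon. Gcnt1, Gcnt3 and Gcnt4 add a branch to core 1 to make core 2, and Gcnt3 can also branch core 3 into core 4. B3gnt7 and B3galt5 lengthen the chains, by adding N-acetylglucosamine to galactose and galactose to N-acetylglucosamine.

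Total estimated counts ranged between 18472867 and 56744113 per library. Levels are given as CPM, the counts of a gene scaled to library size. Foxa1 lay between 10.1 and 14.5 CPM, with a median of 11.3 CPM, in the 7 proximal deficient libraries, against 13.9 to 69.4 CPM, with a median of 61.0 CPM, in the 7 proximal control libraries. Distal Foxa1 lay between 7.21 and 10.5 CPM, with a median of 8.13 CPM, in deficient mice, against 7.60 to 80.8 CPM, with a median of 49.1 CPM, in 6 controls. Control replicate 6, which carried Cre with 2 floxed Foxa1 alleles, was the low control in each segment and lay inside the deficient range. Foxa2 was between 1.23 and 1.75 CPM (median 1.36) in proximal deficient and between 6.05 and 15.7 CPM (median 7.46) in proximal control libraries. In distal colon Foxa2 was between 0.326 and 1.37 CPM (median 0.925) in deficient and between 15.5 and 30.4 CPM (median 18.9) in control libraries, and the groups did not overlap in either segment. Deficient replicate 3, labelled male, had 0.0216 CPM (proximal) and 0.617 CPM (distal) of the Y-linked gene Ddx3y, whereas every other library labelled male had at least 33.3 CPM. Epithelial markers were high throughout: the summed level of 11 pan-epithelial genes lay between 12254 and 17047 CPM in proximal deficient and between 11259 and 17089.7 CPM in proximal control libraries. The distal sum lay between 12257 and 20899.5 CPM in deficient and between 15370.0 and 23380.0 CPM in control libraries.

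In proximal colon 5 of the 8 genes were lower in deficient mice (C1galt1, B3gnt6, Gcnt3, B3gnt7 and B3galt5) and Gcnt4 was higher, each at an adjusted p under 0.05. Of all 16787 genes tested there, 6.17% were called lower, 5.52% higher and 11.7% in either direction. The median log2 fold change of the 8 genes was -0.70, against 0.01 for all genes. In distal colon 2 of 8 were lower (Gcnt3 and B3gnt7) and Gcnt4 was higher, where 3.37% of 16041 genes were called lower, 2.71% higher and 6.08% in either direction. The median log2 fold change was -0.48 for the 8 genes and 0.01 for all genes.

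**Figure D1:**
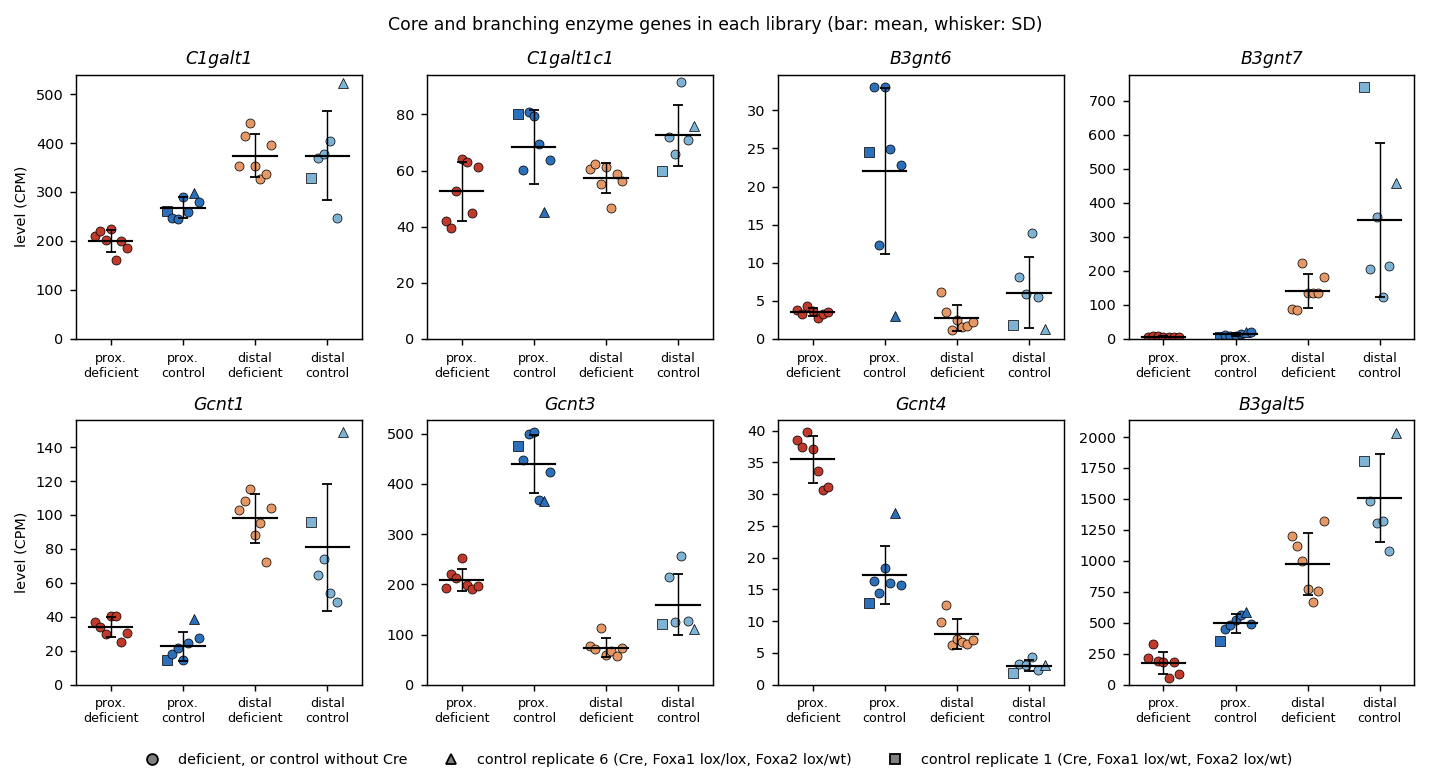
Level of each gene (y axis, CPM) in every library, by segment and genotype group (x axis), with the mean as a bar and the SD as whiskers; squares and triangles are the controls that carried Cre. Gcnt4 separates the genotype groups in both segments, and the triangle of control replicate 6 lies with the deficient libraries for proximal B3gnt6.

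Among the core-forming enzymes, B3gnt6 changed most in proximal colon. B3gnt6 lay between 2.71 and 4.34 CPM, with a median of 3.52 CPM, in proximal deficient libraries, against 3.05 to 33.1 CPM, with a median of 24.5 CPM, in proximal control libraries. The groups overlapped through a single library, control replicate 6 at 3.05 CPM, and the other 6 controls held at least 12.4 CPM. The log2 fold change was -2.63 (SE 0.36, adjusted p = 0.000125). Distal B3gnt6 was scarce in both groups, between 1.21 and 6.16 CPM, with a median of 2.22 CPM, in deficient libraries and between 1.35 and 13.9 CPM, with a median of 5.65 CPM, in control libraries. The distal log2 fold change of -1.17 (SE 0.51) did not pass the test (adjusted p = 0.235). Here both controls that carried Cre were at the bottom, replicate 1 at 1.77 CPM and replicate 6 at 1.35 CPM, whereas the 4 controls without Cre had 5.45 to 13.9 CPM. Set against the controls without Cre alone, distal B3gnt6 passed, at a log2 fold change of -1.63 (adjusted p = 0.0364).

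C1galt1, the core 1 enzyme, lay between 160 and 225 CPM, with a median of 203 CPM, in proximal deficient libraries, against 245 to 298 CPM, with a median of 260.2 CPM, in proximal control libraries. Every deficient library was below every control library, and the log2 fold change was -0.40 (SE 0.08, adjusted p = 0.00253). In distal colon the ranges lay over each other, between 327 and 442 CPM (median 353) in deficient and between 247 and 522 CPM (median 373) in control libraries. The distal log2 fold change of 0.01 (SE 0.14) did not pass the test (adjusted p = 0.987). Its chaperone C1galt1c1 lay between 39.6 and 64.2 CPM, with a median of 52.8 CPM, in proximal deficient libraries and between 45.05 and 81.0 CPM, with a median of 69.5 CPM, in proximal control libraries. Distal C1galt1c1 lay between 46.5 and 62.5 CPM, with a median of 58.9 CPM, in deficient and between 59.8 and 91.6 CPM, with a median of 71.4 CPM, in control libraries. The groups overlapped in both segments, and neither the proximal log2 fold change of -0.36 (SE 0.14, adjusted p = 0.127) nor the distal one of -0.33 (SE 0.10, adjusted p = 0.0669) passed the test. Without control replicate 6, the lowest proximal control at 45.05 CPM, proximal C1galt1c1 passed with a log2 fold change of -0.44 (adjusted p = 0.0272). Among mice of 9 to 13 months it passed with -0.51 (adjusted p = 0.0499). Distal C1galt1c1 passed without control replicate 1 (-0.39, adjusted p = 0.0327) and with DESeq2 (-0.34, adjusted p = 0.0350).

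The branching enzymes did not move together. Gcnt3, the branching enzyme of mucin-secreting epithelia, lay between 191 and 253 CPM, with a median of 199 CPM, in proximal deficient libraries and between 366 and 504 CPM, with a median of 449 CPM, in proximal control libraries. The proximal groups did not overlap, and the log2 fold change was -1.06 (SE 0.09, adjusted p = 1.84e-06). The 3 proximal controls aged 18 months (366 to 423 CPM) were all below the 4 younger ones (449 to 504 CPM). Distal Gcnt3 lay between 56.8 and 112 CPM, with a median of 70.1 CPM, in deficient libraries and between 112 and 256 CPM, with a median of 126 CPM, in control libraries. The distal groups touched, deficient replicate 3 at 112.06 CPM lying just above control replicate 6 at 111.94 CPM. The distal log2 fold change was -1.11 (SE 0.21, adjusted p = 0.00614), and Gcnt3 passed the test under every alternative run in either segment.

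Gcnt4, for which core 2 activity is known from the human enzyme, went the other way. It lay between 30.6 and 39.7 CPM, with a median of 37.1 CPM, in proximal deficient libraries, against 12.9 to 27.01 CPM, with a median of 16.1 CPM, in proximal controls. Distal Gcnt4 lay between 6.25 and 12.6 CPM, with a median of 7.04 CPM, in deficient libraries, against 1.77 to 4.33 CPM, with a median of 3.12 CPM, in control libraries. Every deficient library was above every control library of its segment, with log2 fold changes of 1.06 (SE 0.13, adjusted p = 5.39e-05) in proximal and 1.43 (SE 0.23, adjusted p = 0.0019) in distal colon. The highest proximal control, at 27.01 CPM, was replicate 6, between the other controls, which reached 18.4 CPM, and the deficient libraries. Gcnt4 was the only gene of the 8 that separated the groups in both segments. In proximal colon 3 of the 8 (C1galt1, Gcnt3 and B3galt5) lay wholly below the controls, where 3.05% of all genes did, and 1 lay wholly above, where 1.76% did. In distal colon 0 of 8 lay wholly below and 1 wholly above, where 2.07% and 1.33% of all genes did.

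The 250 bases before each of the 2 RefSeq starts of Gcnt4 (GRCm38.p6, plus strand, 5′ to 3′) are shown because Gcnt4 was the only gene of the 8 called higher in the main test, in both segments, and because the first of them holds a forkhead-type heptamer. The first stretch is chr13:96924094-96924343 and the second is chr13:96924463-96924712, and capitals mark the heptamer, which reads TGTTTGC on the minus strand and begins at position -82 from the start. This first start, at base 96924344, lies upstream of the annotated gene, which begins at base 96924689 and whose transcript Gcnt4-201 held all of its TPM. The second start, at base 96924713, is the one beside the measured transcript, and its window holds no such heptamer.
Gcnt4 upstream, first start: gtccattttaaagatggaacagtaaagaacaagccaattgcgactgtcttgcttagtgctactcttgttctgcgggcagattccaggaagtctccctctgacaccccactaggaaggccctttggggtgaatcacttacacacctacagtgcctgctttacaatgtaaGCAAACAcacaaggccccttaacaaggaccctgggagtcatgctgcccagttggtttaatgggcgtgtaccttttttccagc
Gcnt4 upstream, second start: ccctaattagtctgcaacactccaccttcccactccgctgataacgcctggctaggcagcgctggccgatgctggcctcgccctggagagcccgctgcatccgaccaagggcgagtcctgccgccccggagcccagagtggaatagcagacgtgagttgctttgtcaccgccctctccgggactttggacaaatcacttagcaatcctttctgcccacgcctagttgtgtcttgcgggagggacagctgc
Forkhead-type heptamers were searched on both strands in windows of 250 bases before to 50 bases after a start. The letters searched were TGTTTAC, as well as TGTTTGC, and also TATTTAC, and no motif contains another. RefSeq windows were matched for 5 of the 8 genes (C1galt1, B3gnt7, Gcnt1, Gcnt4 and B3galt5), 10 windows in all, and 2 held a match. The other match was TATTTAC at Gcnt1, a gene of the minus strand, on the strand opposite to the gene, at position -110 from 1 of its 3 starts. Over all 32851 windows the first motif was in 3.65%, the second in 5.07%, the third in 3.04% and any of them in 11.2%. Such a match describes the letters of the window and not binding.

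Gcnt1, the branching enzyme that many tissues and leukocytes express, lay between 25.3 and 40.6 CPM, with a median of 34.0 CPM, in proximal deficient libraries and between 14.3 and 38.5 CPM, with a median of 21.8 CPM, in proximal control libraries. The highest control, replicate 6, lay inside the deficient range, and the 3 controls aged 18 months (24.8 to 38.5 CPM) were all above the 4 younger ones (14.3 to 21.8 CPM). The proximal log2 fold change of 0.60 (SE 0.20) did not pass (adjusted p = 0.0654). It passed at 0.77 without control replicate 6 (adjusted p = 0.00542), at 0.69 against controls without Cre (adjusted p = 0.0132) and at 0.99 among mice of 9 to 13 months (adjusted p = 0.00113). Distal Gcnt1 lay between 72.1 and 115 CPM, with a median of 103 CPM, in deficient libraries and between 48.5 and 149 CPM, with a median of 69.3 CPM, in control libraries. The 2 highest distal controls were the mice with Cre, at 149 CPM (replicate 6) and 95.6 CPM (replicate 1), and the log2 fold change of 0.29 (SE 0.22, adjusted p = 0.553) did not pass. Against the 4 controls without Cre it was 0.70 and passed (adjusted p = 0.0137). The summed level of 7 leukocyte markers lay between 1966 and 2690.3 CPM, with a median of 2452 CPM, in proximal deficient libraries. In proximal control libraries it lay between 1130.4 and 2666 CPM, with a median of 1919 CPM. Of the 7 markers 1 was called higher (Itgam, log2 fold change 0.51, adjusted p = 0.0341) and 0 lower. The markers had a median proximal log2 fold change of -0.20, against 0.01 for all genes. In distal deficient libraries their sum lay between 3268 and 4824 CPM, with a median of 3451 CPM. The distal control sum lay between 2700 and 5135 CPM, with a median of 3493 CPM. There too Itgam alone was called higher (log2 fold change 1.13, adjusted p = 0.018) and 0 were lower. The distal median over the markers was 0.19, against 0.01 for all genes. The part of leukocytes in the Gcnt1 values was not tested.

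Of the chain-lengthening enzymes, B3gnt7 lay between 4.602 and 9.03 CPM, with a median of 6.18 CPM, in proximal deficient libraries and between 5.91 and 20.3 CPM, with a median of 12.7 CPM, in proximal control libraries. The proximal groups overlapped, and the log2 fold change was -0.999 (SE 0.25, adjusted p = 0.0129). The controls aged 18 months were again the high ones, at 14.5 to 20.3 CPM against 5.91 to 12.7 CPM in younger controls. Among mice of 9 to 13 months the change was -0.53 and did not pass (adjusted p = 0.18), nor did it among mice labelled male (-0.91, adjusted p = 0.0565). Distal B3gnt7 lay between 86.3 and 224 CPM, with a median of 134 CPM, in deficient libraries and between 124 and 741 CPM, with a median of 285 CPM, in control libraries. The 2 highest controls, at 741 CPM (replicate 1) and 458 CPM (replicate 6), were the mice with Cre. The distal log2 fold change was -1.30 (SE 0.36, adjusted p = 0.0445). That call was lost in 16 of 24 alternatives, among them the fit without control replicate 1 (-0.95, adjusted p = 0.113) and that against controls without Cre (-0.68, adjusted p = 0.276).

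B3galt5 lay between 53.3 and 325 CPM, with a median of 186 CPM, in proximal deficient libraries, against 355 to 590.3 CPM, with a median of 490.1 CPM, in proximal control libraries. The groups did not overlap, and the log2 fold change was -1.46 (SE 0.29, adjusted p = 0.00266). The 2 lowest deficient libraries, at 53.3 and 87.4 CPM, were those of the mice labelled female, and among mice labelled male B3galt5 stayed called. Distal B3galt5 lay between 666 and 1324 CPM, with a median of 998 CPM, in deficient libraries and between 1080.0 and 2036 CPM, with a median of 1403 CPM, in control libraries. These overlapped, and the log2 fold change of -0.62 (SE 0.19, adjusted p = 0.0759) did not pass in the main test. It passed with DESeq2 (-0.62, adjusted p = 0.0283), without deficient replicate 7 (-0.70, adjusted p = 0.0483), without control replicate 5 (-0.70, adjusted p = 0.0491) and with the replicate number as a block (-0.70, adjusted p = 0.0457). The block fit also left out deficient replicate 7, which has no distal control of the same number.

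**Figure D2:**
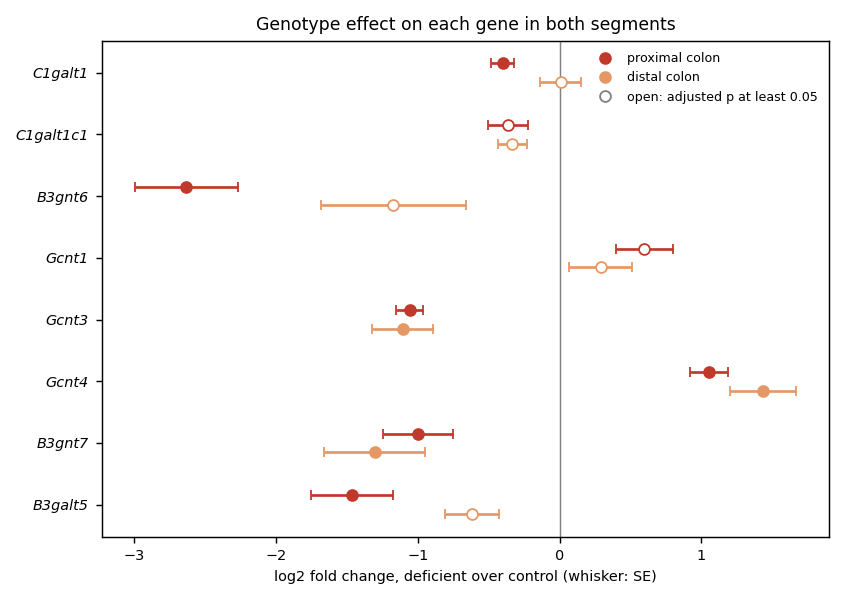
Log2 fold change of deficient over control (x axis, whiskers are the SE) for each gene, in proximal and distal colon; filled points have an adjusted p under 0.05. Gcnt3 lies near -1 and Gcnt4 above 1 in both segments, while B3gnt6 and B3galt5 lie farther from 0 in proximal than in distal colon.

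Whether the genotype effect differed between segments was tested over the 13 mice that gave both, as the distal minus the proximal log2 fold change. With edgeR 0 of the 8 genes passed, where 1.01% of 17595 genes did, 0.432% with a higher and 0.58% with a lower distal effect. At an unadjusted p under 0.05 there were 3 (B3gnt6, C1galt1 and B3galt5), and DESeq2 called 0. The differences were 1.34 (SE 0.45, adjusted p = 0.231) for B3gnt6, 1.01 (SE 0.35, adjusted p = 0.244) for B3galt5 and 0.44 (SE 0.15, adjusted p = 0.219) for C1galt1. Gcnt3 had a difference of 0.01 (SE 0.21) and Gcnt4 of 0.37 (SE 0.20). Genes called in proximal and not in distal colon were thus not shown to differ between the segments.

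The 2 controls with Cre differ in the alleles that Cre could delete, and each is a single mouse, so their values are given without a test. Control replicate 6, with a lone intact Foxa2 allele, had 13.9 CPM of Foxa1 and 15.7 CPM of Foxa2 in proximal colon. There its B3gnt6 (3.05 CPM), C1galt1c1 (45.05 CPM) and Gcnt1 (38.5 CPM) lay within the deficient ranges. Its B3galt5 (590.3 CPM) and C1galt1 (298 CPM) lay above those of every other proximal library. Its Gcnt3 (366 CPM) lay just below the other controls, of which replicate 5, without Cre and also aged 18 months, had 368 CPM. In distal colon its C1galt1 (522 CPM), Gcnt1 (149 CPM) and B3galt5 (2036 CPM) were the highest of all distal libraries. Control replicate 1, with an intact allele of each gene, lay within the range of controls without Cre in proximal colon for 5 of the 8 genes. It lay below them for B3galt5 (355 CPM, against at least 449 CPM), B3gnt7 (5.91 CPM, against at least 8.83 CPM) and Gcnt4 (12.9 CPM, against at least 14.5 CPM). In distal colon it lay within that range for 1 of 8 genes, C1galt1. There it lay above the controls without Cre for B3gnt7 (741 CPM, against at most 357 CPM), Gcnt1 (95.6 CPM, against at most 74.0 CPM) and B3galt5 (1808 CPM, against at most 1482 CPM). It lay below them for C1galt1c1 (59.8 CPM, against at least 65.7 CPM), B3gnt6 (1.77 CPM, against at least 5.45 CPM), Gcnt3 (122 CPM, against at least 125 CPM) and Gcnt4 (1.77 CPM, against at least 2.26 CPM). Replicate 6 was aged 18 months and replicate 1 was aged 10.5 months.

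**Figure D3:**
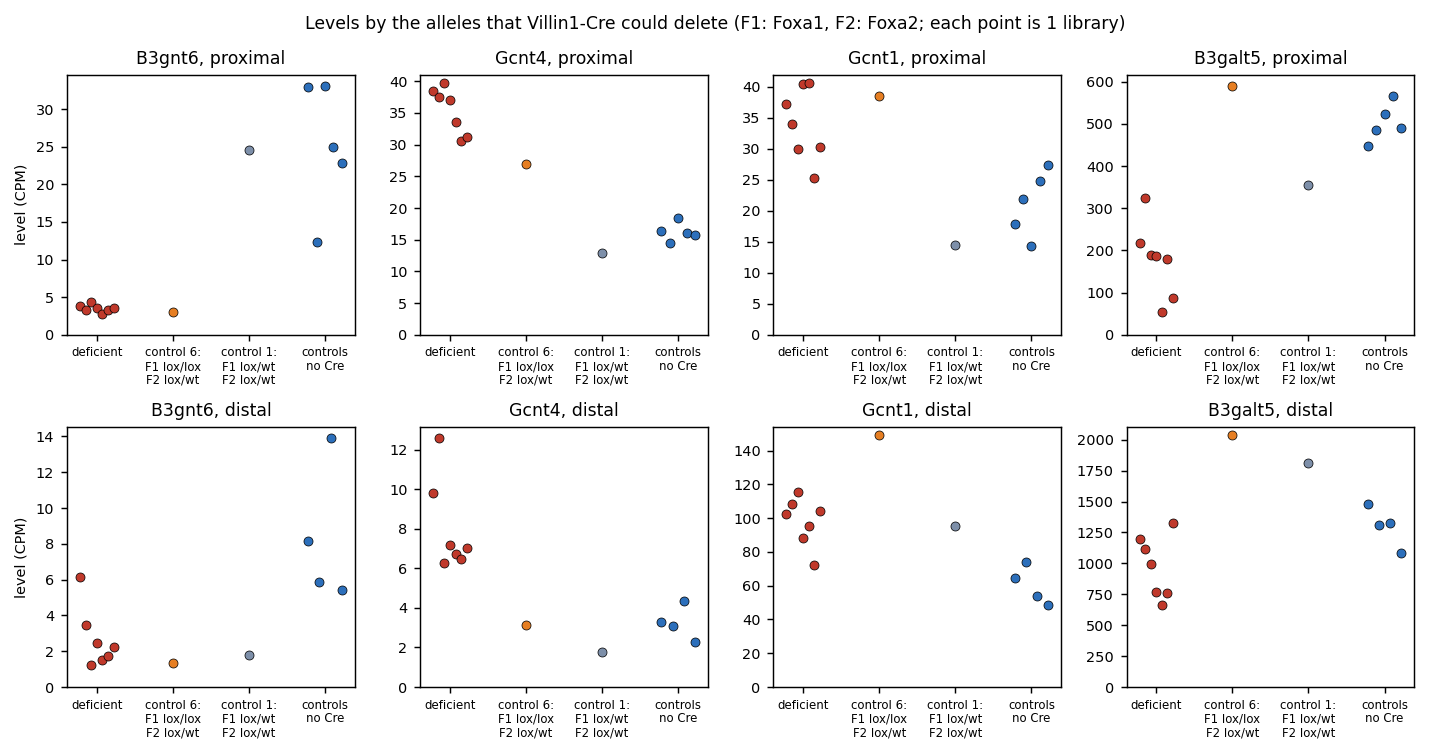
Levels (y axis, CPM) of B3gnt6, Gcnt4, Gcnt1 and B3galt5 in proximal (top) and distal (bottom) libraries, split by genotype into deficient mice, control replicate 6, control replicate 1 and controls without Cre. Control replicate 6 lies at the deficient level for B3gnt6 in both segments and above the deficient libraries for B3galt5. Control replicate 1 lies at the deficient level for B3gnt6 in distal colon only, and also above the deficient libraries for B3galt5 in both segments.

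Distal and proximal colon of the same mice were compared within each genotype group. Among deficient mice 6 of 8 genes were called, 4 higher and 2 lower in distal colon, where 45.1% of 16514 genes were called, 22.7% higher and 22.4% lower. Among control mice 7 of 8 were called, 4 higher and 3 lower, where 43.8% of 16507 genes were called, 21.5% higher and 22.3% lower. The segments were quantified with different fragment lengths, so segment and quantification cannot be told apart. With a transcript length offset the counts of called genes were again 6 and 7. B3gnt7 had the widest contrast, with distal over proximal ratios of 10.6 to 29.5 (median 24.8) in 7 deficient mice and of 14.1 to 125 (median 20.0) in 6 control mice. Its log2 fold change was 4.41 (SE 0.20, adjusted p = 4.82e-07) in deficient and 4.68 (SE 0.42, adjusted p = 4.91e-05) in control mice.

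B3galt5 was higher in distal colon in every mouse, with ratios of 3.44 to 15.1 in deficient and 1.91 to 5.09 in control mice, and log2 fold changes of 2.60 (SE 0.28) and 1.59 (SE 0.18). Gcnt1 was likewise higher in every mouse, with log2 fold changes of 1.53 (SE 0.11) in deficient and 1.87 (SE 0.19) in control mice. C1galt1 was higher in distal colon in 7 of 7 deficient mice, by 0.90 (SE 0.09) on the log2 scale, and in 5 of 6 control mice, by 0.46 (SE 0.12). Gcnt3 and Gcnt4 were lower in distal colon in all 13 mice. The log2 fold change of Gcnt3 was -1.53 (SE 0.13) in deficient and -1.54 (SE 0.16) in control mice, and that of Gcnt4 was -2.18 (SE 0.13) in deficient and -2.56 (SE 0.16) in control mice. B3gnt6 was lower in distal colon in 5 of 7 deficient mice, at a log2 fold change of -0.56 (SE 0.28) that did not pass (adjusted p = 0.123). In controls it was lower in 6 of 6 mice, at -1.88 (SE 0.32, adjusted p = 0.0015). C1galt1c1 changed by 0.14 (SE 0.14, adjusted p = 0.414) in deficient and 0.09 (SE 0.15, adjusted p = 0.645) in control mice and was not called in either.

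**Figure D4:**
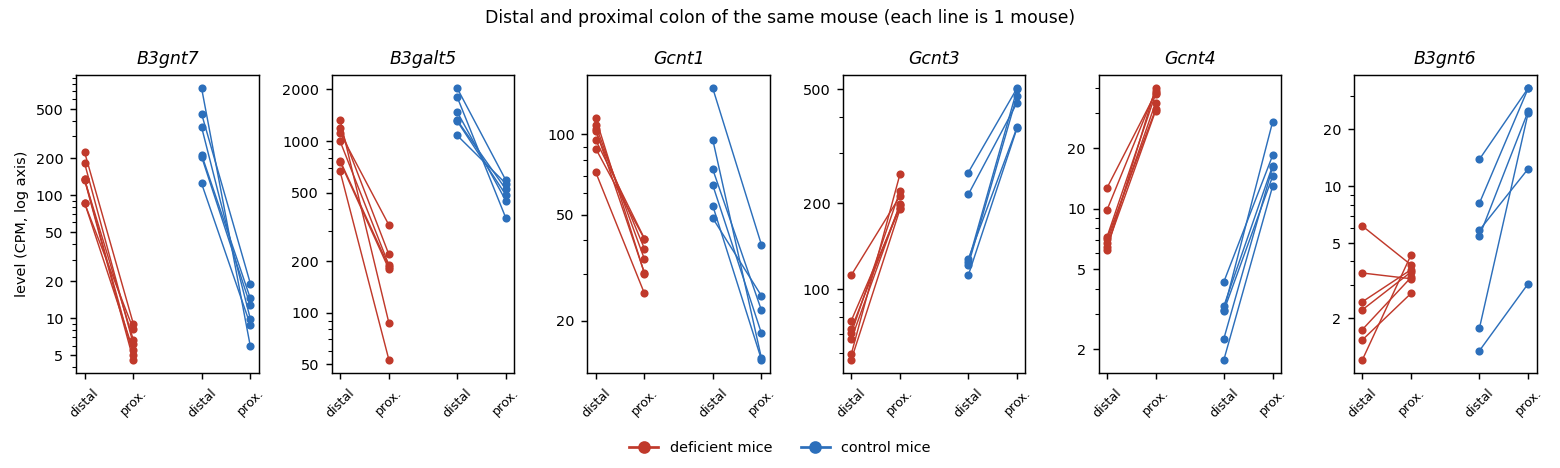
Levels of 6 genes (y axis, CPM on a log axis) in distal and proximal colon of deficient and control mice, with a line for each mouse. All lines of B3gnt7, B3galt5 and Gcnt1 fall towards proximal colon, all lines of Gcnt3 and Gcnt4 climb, and those of B3gnt6 climb in all 6 control mice and in 5 of 7 deficient mice.

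To set the genes beside each other, deposited TPM (abundance scaled to transcript length) were summed per gene. In proximal deficient colon the median TPM ran, from high to low, Gcnt3 68.3, C1galt1c1 56.5, B3galt5 52.3, C1galt1 47.2, Gcnt1 11.6, Gcnt4 9.46, B3gnt7 3.53 and B3gnt6 2.16. In proximal control colon the order was Gcnt3 147, B3galt5 142, C1galt1c1 77.4, C1galt1 61.6, B3gnt6 15.3, B3gnt7 7.99, Gcnt1 6.74 and Gcnt4 4.63. The ranges of neighbours in these orders overlapped, except between C1galt1 and the gene after it in both groups, between Gcnt4 and B3gnt7 in deficient mice and between B3galt5 and C1galt1c1 in controls. The core 3 enzyme B3gnt6 was thus the fifth gene in proximal controls and the last in deficient mice.

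In distal deficient colon the order of median TPM was B3galt5 227, C1galt1 72.2, B3gnt7 69.5, C1galt1c1 54.1, Gcnt1 25.6, Gcnt3 20.6, Gcnt4 1.77 and B3gnt6 1.11. In distal control colon it was B3galt5 355, B3gnt7 147, C1galt1 74.8, C1galt1c1 65.4, Gcnt3 35.8, Gcnt1 19.6, B3gnt6 3.08 and Gcnt4 0.707. Ranges of neighbours overlapped, except between B3galt5 and C1galt1, C1galt1c1 and Gcnt1, and Gcnt3 and Gcnt4 in deficient mice, and between Gcnt1 and B3gnt6 in controls. The TPM ratio of Gcnt1 to Gcnt3 had a median of 1.34 (0.957 to 1.45) in distal deficient and of 0.4604 (0.199 to 1.25) in distal control libraries. In proximal colon it was 0.149 (0.129 to 0.198) in deficient and 0.0419 (0.0290 to 0.109) in control libraries, without overlap. The ratio of Gcnt4 to Gcnt3 was 0.142 (0.123 to 0.168) in proximal deficient against 0.0306 (0.0228 to 0.0619) in proximal control libraries, and 0.0953 (0.0467 to 0.151) in distal deficient against 0.0145 (0.0122 to 0.0234) in distal control libraries. The ratio of B3gnt6 to C1galt1, the enzymes that compete for the starting sugar, was 0.0461 (0.0400 to 0.0585) in proximal deficient and 0.259 (0.0280 to 0.366) in proximal control libraries. In distal colon that ratio was 0.0154 (0.00752 to 0.0480) in deficient and 0.0518 (0.00710 to 0.0947) in control libraries. Its ranges overlapped in both segments.

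**Figure D5:**
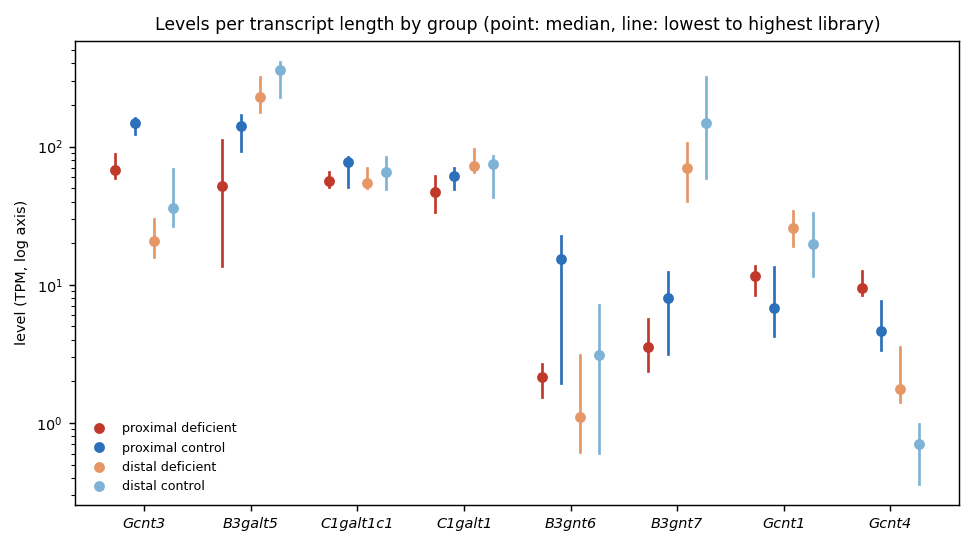
Median TPM of each gene (y axis, log axis), with a line from the lowest to the highest library, in the 4 groups. B3galt5 is the highest gene of distal colon in both genotype groups, and Gcnt3 the highest of proximal colon by its median.

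The rest of the pathway was described by lists. Of all genes tested, 6.17% were called lower and 5.52% higher in proximal colon. In distal colon 3.37% were called lower and 2.71% higher. The median log2 fold change of all genes was 0.01 in each segment. Of the enzymes that start the chains, 7 of 16 tested were lower and 1 was higher in proximal deficient colon, with a median log2 fold change of -0.15. In distal colon 3 of 15 were lower and 0 higher. Galnt4 had 160 ± 20.4 CPM in proximal deficient and 316 ± 17.9 CPM in proximal control libraries (SD, n = 7 each; log2 fold change -0.97, adjusted p = 1.2e-06). Galnt7 had 103 ± 12.4 CPM in proximal deficient and 194 ± 14.6 CPM in proximal control libraries (SD, n = 7 each; log2 fold change -0.89, adjusted p = 2.43e-06). In distal colon Galnt4 fell by 0.82 and Galnt7 fell by 0.59 on the log2 scale. Of the other extension and branching enzymes 3 of 18 were lower in proximal and 2 of 17 in distal deficient colon, and 0 were higher. B3galt2, a relative of B3galt5, fell by 2.42 in proximal colon and fell by 1.57 in distal colon on the log2 scale, and the I-branching enzyme Gcnt2 fell by 1.28 in distal colon.

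Enzymes that cap the chains, with sialic acid, fucose, sulfate or other sugars (Abo, B4galnt2, A4gnt and Ggta1), were called in both directions. In proximal colon 9 of 25 were lower, among them Abo, B4galnt2 and A4gnt, and 2 higher. Their median log2 fold change was 0.03, against 0.01 for all genes. In distal colon 4 of 27 were lower, among them A4gnt, and 2 higher. Of all genes tested, 6.17% were called lower and 5.52% higher in proximal colon, and 3.37% and 2.71% in distal colon. The fucosyltransferase Fut2 had 191 ± 37.6 CPM in distal deficient (n = 7) and 369 ± 54.5 CPM in distal control libraries (SD, n = 6; log2 fold change -0.95, adjusted p = 0.000575). The sialyltransferase St6gal1 fell by 1.22 and the fucosyltransferase Fut4 by 1.06 on the log2 scale in proximal colon. Of the genes that make and carry the sugar donors, 8 of 24 were lower in proximal and 3 of 24 in distal deficient colon, and 0 were higher. Gmds, the first enzyme of GDP-fucose synthesis, fell by 1.03 in proximal and 1.64 in distal colon on the log2 scale. The sialic acid synthase Nans fell by 0.64 in proximal colon and the sulfate transporter Slc26a2 by 1.22 in distal colon.

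Among the mucins themselves 4 of 9 were lower in proximal and 0 of 9 in distal deficient colon, and 0 were higher. Muc2 lay between 733 and 1181 CPM, with a median of 812 CPM, in proximal deficient libraries, against 1514 to 3146 CPM, with a median of 2715 CPM, in proximal control libraries. These groups did not overlap, and the log2 fold change was -1.49 (SE 0.17, adjusted p = 2.17e-05). Distal Muc2 lay between 746 and 1250 CPM (median 1058) in deficient and between 479 and 2780 CPM (median 1794) in control libraries, with a log2 fold change of -0.69 (SE 0.33, adjusted p = 0.292). The 2 distal controls with Cre, at 479 and 739 CPM, lay below the deficient range, and against the 4 controls without Cre the change was -1.09 and passed (adjusted p = 0.00304). Some markers of goblet cells, the mucin-secreting cells, were called lower too, more of them in proximal than in distal colon. Of the 18 markers, 7 were not called in the proximal and 13 in the distal comparison. Their median log2 fold changes were -0.87 (proximal) and -0.55 (distal). Among all genes tested, 6.17% were called lower in the proximal comparison and 3.37% in the distal one. In proximal colon 11 of 18 were lower and 0 higher, and their summed level lay between 3933 and 8968 CPM in deficient and between 7998 and 11395 CPM in control libraries. In distal colon 5 of 18 were lower, with sums between 14627 and 28319 CPM in deficient and between 27354 and 38767 CPM in control libraries, and no goblet marker was at 0 throughout a group. Of 11 pan-epithelial markers 1 was lower in proximal and 0 in distal deficient colon. The part of goblet cell number in the enzyme values was not tested. Of the small-intestinal enterocyte markers, 13 of 13 tested were higher in proximal deficient colon, where Gcnt4 was higher, and their sum lay between 1189 and 3746 CPM in deficient and between 463 and 781 CPM in control libraries. In distal colon 5 of 10 were called higher and 0 lower, while their summed level had a lower median in deficient libraries, 471 CPM (306 to 697), than in control libraries, 607 CPM (431 to 701). Of all genes tested, 5.52% were called higher in proximal and 2.71% in distal colon. The median log2 fold change of the tested markers was 3.46 in proximal and 1.38 in distal colon, against 0.01 for all genes in each. The part of these markers in the Gcnt4 values was not tested.

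The 8 genes have 17 annotated transcripts, of which 8, 1 per gene, held at least 10% of the gene's TPM in any group. For C1galt1, C1galt1c1, B3gnt6, Gcnt3 and Gcnt4 this transcript held all of the gene's TPM, for B3gnt7 97.5 to 97.9%, for B3galt5 90.2 to 92.3% and for Gcnt1 89.3 to 98.5% of a group's mean. Tested as transcripts, these 8 gave the same calls as the genes, except for distal B3gnt7 (-1.30, adjusted p = 0.123). In GRCm38, C1galt1 lies at chr6:7844842-7875687, C1galt1c1 at chrX:38630785-38635087, B3gnt6 at chr7:98192417-98199481 and B3gnt7 at chr1:86302832-86307305. Gcnt1 lies at chr19:17326141-17372844, Gcnt3 at chr9:70031496-70038088, Gcnt4 at chr13:96924689-96950906 and B3galt5 at chr16:96235801-96319859. No pair of the 8 genes shares a chromosome.

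The genes most like each of the 8 in log2 CPM over all 27 libraries were taken from 13335 genes; the libraries share mice, segments and genotypes, and Pearson's r is given as a description. Gcnt4 was most like Malrd1 (r = 0.98) and Wipf3 (0.96), and B3gnt7 was most like Myo5c, an unconventional myosin (0.98), and Arhgap35 (0.98). C1galt1 was closest to Ibtk (0.96) and Gcc2 (0.94), B3galt5 to Cpd (0.95) and Tmem248 (0.94), and Gcnt3 to Rnft1 (0.94) and Gstk1 (0.94). Gcnt1 was closest to Eno3 (0.94) and Stom (0.94), and B3gnt6 to Hsd17b14 (0.92) and Cd24a (0.89). C1galt1c1 had the lowest values, with Galk2, a kinase of N-acetylgalactosamine (0.87), and Sri (0.82).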

How the data were processed

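The submitters' processing notes name kallisto 0.46.2, cutadapt 2.5, bcl2fastq 2.20.0.422, edgeR with no version and the GRCm38 build. Per library, the authors deposited transcript lengths with kallisto's estimated counts and TPM. For each segment the authors also deposited log2 CPM of genes; how these were normalized was not stated. Effective lengths were 249 bases below transcript lengths in all distal libraries, and between 214.56 and 245.61 bases below in proximal ones.

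Counts were summed per gene (GENCODE M21; 116728 of 119414 transcripts matched, the others holding 0.902% to 1.27% of a library) and rounded to whole numbers. Reads of near-identical sequences were divided by kallisto's model. Each comparison was fitted on all genes with edgeR 4.0.16 (R 4.3.3; filterByExpr with a minimum count of 10, TMM, glmQLFit and glmQLFTest), and Benjamini-Hochberg adjusted p-values under 0.05 were called. All p-values are from this fit unless another tool is named. Genotypes were compared within a segment without covariates, and segments with the mouse as a block, since the labels give the same mouse number to both segments of a mouse. SE is the log2 fold change divided by the square root of F. CPM use TMM factors over all 27 libraries. Each replicate is a mouse. Replicate numbers shared by deficient and control mice name different mice and were not used as pairs in the main fits. Deviations of same-numbered libraries correlated between -0.153 and 0.316 in proximal and between -0.122 and 0.304 in distal colon. Replicate 2 had 0.316 in proximal and 0.283 in distal colon. No reference was computed for these values, so whether any same-numbered mice belong together was not tested. The fits were also run on simulated counts with known changes, and the outcome is not reported here. The simulated counts held no effect shared by both segments of a mouse.

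Named genes are the 8 members with Foxa1, Foxa2 and Muc2, at most 2 called genes of smallest p per pathway list and genotype comparison, and the 2 genes most like each member (log2 CPM with 0.5 added, mean CPM of at least 1). The members, lists and alternatives were chosen with earlier results of these data known. Alternatives were DESeq2 1.42.0, limma 3.58.1 on the deposited log2 CPM, RLE factors, no filter, a length offset, transcript counts, TPM levels, single libraries left out, blocks, and subsets by Cre, sex label and age.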

Additional observations from a re-analysis of the deposited data

Results flagged for a closer look

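Among the 32 sets of libraries formed by the 8 genes in the 4 groups, 2 held a library far from the rest by Dixon's criterion, where chance gives about 1 in 20. Gcnt3 was 112.06 CPM in distal deficient replicate 3, the mouse labelled male with almost no Ddx3y, while the other 6 libraries of that group were between 56.8 and 77.7 CPM. Gcnt4 was 27.01 CPM in proximal control replicate 6, the mouse with Cre and 2 floxed Foxa1 alleles, while the other 6 controls were between 12.9 and 18.4 CPM. Gcnt3 and Gcnt4 remained called in both segments when either library was left out.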

How the results depend on the processing

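Of the 8 genes, 6 were called in proximal colon and 5 to 8 under the alternatives, the 8 being reached without control replicate 6 (leaving out single libraries gave 6 to 8). In distal colon 3 were called, 5 with DESeq2, 2 to 4 with single libraries left out and 2 to 4 under the other alternatives. Gcnt3 and Gcnt4 were called in every fit of either segment, and C1galt1, B3gnt6 and B3galt5 in every proximal fit. The segment difference called 0 genes in every fit, with and without the mouse block. Deficient segments gave 6 genes (6 to 7) and control segments 7 (6 to 7). With the replicate number as a block the genotype counts were 6 in proximal and 3 in distal colon. This fit held only replicate numbers present in both groups, so distal deficient replicate 7 was left out. Distal B3gnt7 was lost (adjusted p = 0.133) and B3galt5 gained, and no other call changed. Leaving out distal deficient replicate 7 without the block also lost B3gnt7 (adjusted p = 0.057) and gained B3galt5 (adjusted p = 0.0483).

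Signs turned for distal C1galt1, 3 segment differences and C1galt1c1 between control segments, none of them called. Distal C1galt1 ran from -0.0867 to 0.123 over all alternatives, and was -0.0266 among mice labelled male without deficient replicate 3. The segment difference of Gcnt3 was -0.00513 with RLE factors, -0.00495 with DESeq2, -0.0289 without the mouse block and between -0.0868 and 0.122 with a mouse left out. With a mouse left out, that of C1galt1c1 ran from -0.0429 to 0.19 and that of B3gnt7 from -0.46 to 0.121, and C1galt1c1 between control segments ran from -0.0488 (without replicate 6) to 0.19. C1galt1 between control segments lost its call without replicate 2 (0.44, adjusted p = 0.0517), and B3gnt6 between deficient segments gained one without replicate 1 (-0.78, adjusted p = 0.0315). Proximal Gcnt1 also passed with DESeq2 (adjusted p = 0.0372) and limma (adjusted p = 0.0425). Distal Foxa1 lost its call with the length offset (-0.83, adjusted p = 0.0517). The causes were not tested. B3gnt6 and Gcnt4 were low in distal colon, between 1.21 and 13.9 CPM, so counting error weighs most there.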
